A study of Mus musculus with 15 samples.

Results

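FK506 blocks the phosphatase calcineurin, and the comparison described here asks which transcripts of curdlan-stimulated dendritic cells differed when calcineurin was blocked for 4 h. Its members are 6 of the 15 arrays of the series, chosen by their labels: 3 arrays of D1 cells given curdlan for 4 h and 3 arrays of D1 cells given curdlan with FK506 for 4 h. Both groups received 10 µg/ml curdlan, so FK506 is the only labelled difference between them. The other 9 arrays, in 3 groups of 3, were nontreated D1 cells, curdlan for 2 h and curdlan with FK506 for 2 h. An arm with FK506 and no curdlan is not analysed here, and the differences below therefore belong to stimulated cells. D1 is a long-term dendritic cell line from the spleen of C57BL/6 mice and is grown in medium containing GM-CSF from transfected fibroblasts. All samples are therefore cultures of 1 line, each labelled as a biological replicate, and the labels do not say how the cultures were separated, so p-values measure the spread between these samples. A difference is the log2 level with curdlan alone less the level with both agents, so a positive value is a lower level with FK506.

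Curdlan is a beta-glucan that binds dectin-1, a receptor that dendritic cells use to sense fungi. Dectin-1 signals through the kinase SYK to NF-kB and also raises cytosolic calcium. Calcium activates calcineurin, which strips phosphate from NFAT transcription factors and lets them enter the nucleus, often to act with AP-1 factors. FK506 bound to an FKBP protein blocks calcineurin, as is best known from the loss of interleukin-2 in T cells. Interferon-stimulated genes are a separate group, switched on by STAT and IRF factors downstream of interferon receptors.

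The sequences just upstream of 6 genes are shown because these genes carry the main patterns below: the classical calcineurin target Il2, 3 of the largest decreases with FK506, the interferon-stimulated gene Ifit1 and the largest increase. Each is the 250 bases before the start of transcription in the RefSeq annotation of GRCm38.p6, at chr3:37125955-37126204 (minus strand) for Il2, chr5:92328080-92328329 (minus) for Cxcl9, chr12:70153881-70154130 (plus) for Abhd12b, chr9:7272264-7272513 (plus) for Mmp13, chr19:34640639-34640888 (plus) for Ifit1 and chr19:41802085-41802334 (minus) for Arhgap19. Capitals mark every match, on either strand, to the NFAT core GGAAAA or the AP-1 site TGAGTCA in all windows but Ifit1. In the Ifit1 window they mark the IRF element (GAAA, any 2 bases, GAAA), which is not marked in the other windows.
Il2: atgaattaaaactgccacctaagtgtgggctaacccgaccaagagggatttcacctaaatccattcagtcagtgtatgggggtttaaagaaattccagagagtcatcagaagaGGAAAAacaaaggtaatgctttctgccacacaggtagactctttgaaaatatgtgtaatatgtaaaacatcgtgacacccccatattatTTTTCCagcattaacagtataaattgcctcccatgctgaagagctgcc
Cxcl9: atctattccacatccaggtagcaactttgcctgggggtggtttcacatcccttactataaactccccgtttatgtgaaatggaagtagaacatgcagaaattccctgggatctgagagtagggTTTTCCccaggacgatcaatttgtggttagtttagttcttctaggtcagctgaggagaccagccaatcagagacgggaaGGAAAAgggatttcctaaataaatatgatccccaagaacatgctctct
Abhd12b: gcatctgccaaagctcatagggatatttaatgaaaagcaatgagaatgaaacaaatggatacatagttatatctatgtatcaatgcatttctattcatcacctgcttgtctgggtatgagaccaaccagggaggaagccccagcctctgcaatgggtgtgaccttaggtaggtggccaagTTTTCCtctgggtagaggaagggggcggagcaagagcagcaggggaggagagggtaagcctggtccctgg
Mmp13: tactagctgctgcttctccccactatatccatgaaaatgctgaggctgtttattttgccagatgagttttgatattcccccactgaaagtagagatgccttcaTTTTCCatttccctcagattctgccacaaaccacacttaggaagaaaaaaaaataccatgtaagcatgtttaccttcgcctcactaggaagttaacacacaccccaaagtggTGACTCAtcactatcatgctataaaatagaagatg
Ifit1: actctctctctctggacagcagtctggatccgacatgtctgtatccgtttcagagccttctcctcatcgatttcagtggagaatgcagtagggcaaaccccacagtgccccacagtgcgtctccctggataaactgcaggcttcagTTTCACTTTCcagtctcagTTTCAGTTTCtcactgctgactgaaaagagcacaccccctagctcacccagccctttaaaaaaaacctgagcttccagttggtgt
Arhgap19: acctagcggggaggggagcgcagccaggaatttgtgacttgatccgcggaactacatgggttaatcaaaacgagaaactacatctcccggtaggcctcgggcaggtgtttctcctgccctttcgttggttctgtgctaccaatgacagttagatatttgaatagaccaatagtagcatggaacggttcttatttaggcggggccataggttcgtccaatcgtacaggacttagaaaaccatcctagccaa

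The NFAT core stands 137 and 48 bases before the start of Il2, 127 and 48 bases before that of Cxcl9, 70 bases before that of Abhd12b and 147 bases before that of Mmp13. Mmp13 also has the AP-1 letters 35 bases before its start, and Ifit1 has IRF elements 104 and 85 bases before its start. The Mmp13 window also holds TTTCCATTTC, an unmarked match to the IRF element that overlaps its NFAT core. None of the 3 motifs is in the Arhgap19 window. So short a core is common: it was in 20.4% of all 32851 windows of this length in the RefSeq table, in 22.5% of the 302 windows of genes lower with FK506 and in 23.6% of the 55 windows of genes higher with FK506. The corresponding shares were 4.46%, 7.28% and 9.09% for the AP-1 site, and 2.98%, 9.27% and 5.45% for the IRF element, which was added after the expression values were seen. A match to these letters describes the window and is no evidence of binding.

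At 4 h, 306 of 19937 tested genes were lower with FK506 and 42 were higher. These are 1.53% and 0.211% of all tested genes, at a Benjamini-Hochberg adjusted p under 0.05 in limma and a fold change of at least 1.5. The decreases were also the larger changes: 114 genes were lower by at least 2-fold and 21 by at least 4-fold, against 3 genes higher by at least 2-fold and 0 by at least 4-fold. The median difference was 0.88 among the lower genes and -0.66 among the higher genes, and over all tested genes it was -0.03. The values of the 3 curdlan and the 3 FK506 arrays did not overlap in any called gene, while 36.3% of all tested genes showed such separation. By adjusted p alone, without the fold threshold, 1202 genes (6.03%) were lower and 1125 (5.64%) were higher, so the excess of decreases lies in the large changes. The RNA came from whole cultures, in which fewer cells of a type and less RNA per cell cannot be told apart.

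**Figure D1:**
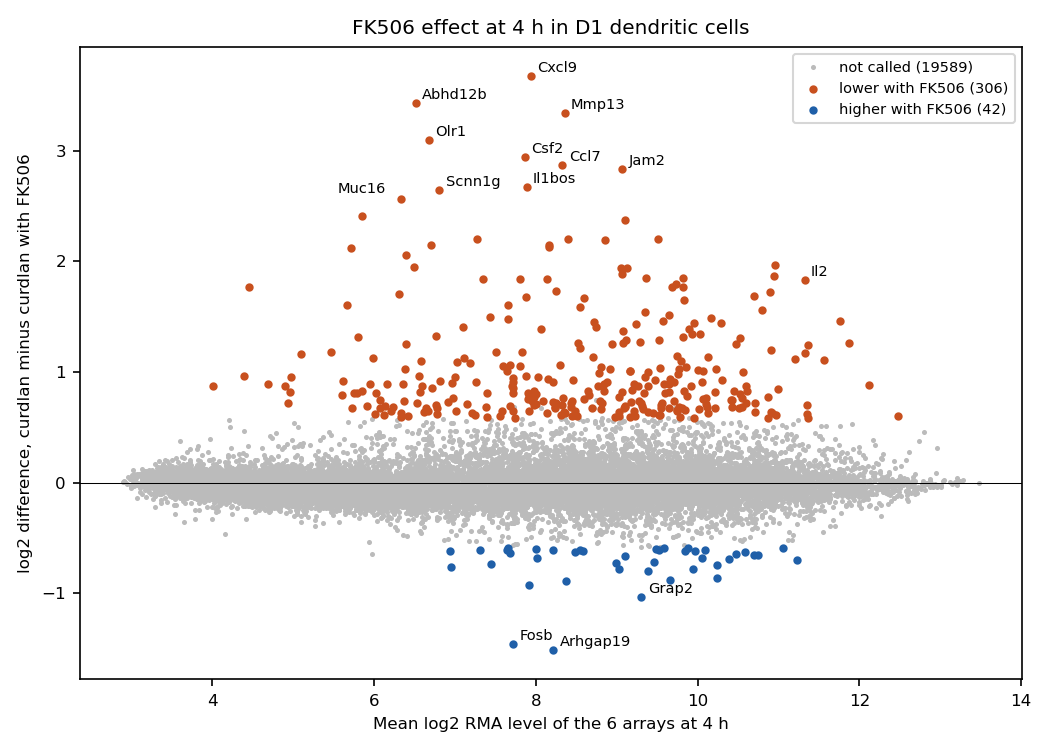
Each point is a gene, with its mean log2 RMA level over the 6 arrays at 4 h on the x axis and the log2 difference, curdlan minus curdlan with FK506, on the y axis. The 306 lower genes reach 3.68, while the 42 higher genes reach -1.52.

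The 6 arrays of the comparison were uniform. Correlations over all tested genes were at least 0.9989 within both groups, and array medians of the tested genes ran from 6.71 to 6.78. Of 10 conventional dendritic cell markers 0 were called in either direction. Over all tested genes 1.53% were called lower and 0.211% higher, so lists this short would often have 0 calls. The mean level of the 10 markers was 10.12 to 10.14 on the curdlan arrays and 10.06 to 10.09 on the FK506 arrays. Itgax, which encodes CD11c, read 12.27, 12.23 and 12.26 with curdlan and 12.34, 12.34 and 12.32 with FK506. H2-Ab1, an MHC class II chain, lay between 12.95 and 13.04 on all 6 arrays. Zbtb46, a transcription factor of conventional dendritic cells, read 9.10 to 9.24 with curdlan and 9.07 to 9.13 with FK506. Flt3 was near the lower end of the scale, at 5.65 to 5.80. The largest differences of the list were in transcription factors of dendritic cell development. Irf8 read 11.15, 11.25 and 11.14 with curdlan and 10.71, 10.67 and 10.66 with FK506, without overlap and under 1.5-fold (0.50 ± 0.04, limma adjusted p = 2.88e-06), and Irf4 differed by 0.18 ± 0.05 (limma adjusted p = 0.0364). Marker lists of B cells, neutrophils, mast cells, fibroblasts, plasmacytoid dendritic cells and erythroid cells had 0 called members. Exceptions in other lists were Mertk and Cd14 among 7 macrophage markers, Cd5 among 7 T cell markers and Nkg7 among 7 natural killer cell markers, all lower with FK506.

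Several of the largest decreases left levels near those of nontreated cells. Cxcl9, an interferon-induced chemokine that attracts T cells through CXCR3, had log2 levels of 9.72, 9.96 and 9.66 on the curdlan arrays and 6.17, 6.06 and 6.08 on the FK506 arrays. Every curdlan array was far above every FK506 array, and the nontreated arrays read 5.80, 5.80 and 5.87. The difference was 3.68 ± 0.08 (SE, n = 3 per group), 12.8-fold lower with FK506 (limma adjusted p = 1.31e-11). Abhd12b, whose product belongs to the alpha/beta hydrolase family, had levels of 8.13, 8.27 and 8.30 with curdlan and 4.80 on each of the 3 FK506 arrays. The groups were wide apart, with a difference of 3.43 ± 0.06 (10.8-fold lower, limma adjusted p = 1.51e-12), and the mean of nontreated cells was 4.36 ± 0.08 (SD, n = 3). Mmp13, a collagenase, read 9.98, 10.05 and 10.04 with curdlan and 6.75, 6.60 and 6.71 with FK506. It was 10.1-fold lower with FK506, by 3.34 ± 0.08 (limma adjusted p = 2.38e-11), and no array of a group came near the other group. Its nontreated mean was 6.03 ± 0.13 (SD, n = 3). The level with FK506 stayed above that mean by 0.66 (limma adjusted p = 2.85e-05).

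Olr1 encodes LOX-1, a scavenger receptor for oxidised lipoproteins. Its levels were 8.22, 8.37 and 8.08 with curdlan and 4.99, 5.15 and 5.25 with FK506, against 4.84, 4.79 and 4.64 in nontreated cells. The FK506 arrays stood close above the nontreated arrays, and the difference of 3.09 ± 0.09 was 8.53-fold (limma adjusted p = 5.72e-11). Csf2, which encodes GM-CSF, a growth and survival factor of myeloid cells, read 9.35, 9.32 and 9.33 with curdlan, 6.31, 6.40 and 6.47 with FK506, and 6.20, 5.83 and 6.02 in nontreated cells. Its difference was 2.94 ± 0.14 (7.68-fold, limma adjusted p = 1.07e-08). Ccl7, a chemoattractant of monocytes, read 9.72, 9.77 and 9.80 with curdlan and 6.86, 6.89 and 6.93 with FK506, so that all 3 FK506 arrays lay below the nontreated arrays at 7.34, 7.18 and 7.25. It was 7.31-fold lower with FK506 (2.87 ± 0.05, limma adjusted p = 1.84e-12).

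Further large decreases were found for genes of adhesion, transport and the cell surface. Jam2, a junctional adhesion molecule, was lower by a log2 difference of 2.83 ± 0.08, Scnn1g, the gamma subunit of the epithelial sodium channel, by 2.64 ± 0.07, and Muc16, a membrane mucin, by 2.56 ± 0.14. Scnn1g went from 8.22, 8.19 and 7.97 with curdlan to 5.61, 5.43 and 5.42 with FK506, near the nontreated mean of 5.34 ± 0.01. Il1bos, an RNA antisense to Il1b, was lower by 2.67 ± 0.16. Il1b itself read 12.94, 12.92 and 12.92 with curdlan and 12.50, 12.59 and 12.56 with FK506. These values do not overlap, and the Il1b log2 difference of 0.38 ± 0.19 (1.30-fold) is under the fold threshold. Its limma adjusted p was 0.294 in the fit of all 15 arrays, which includes nontreated arrays that spread widely (SD 0.54), and 0.000339 with the 6 arrays of the comparison alone. Of the 306 lower genes, 19 had a mean with FK506 under 5.28, the lower quartile of all gene means, where array signal is dim.

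**Figure D2:**
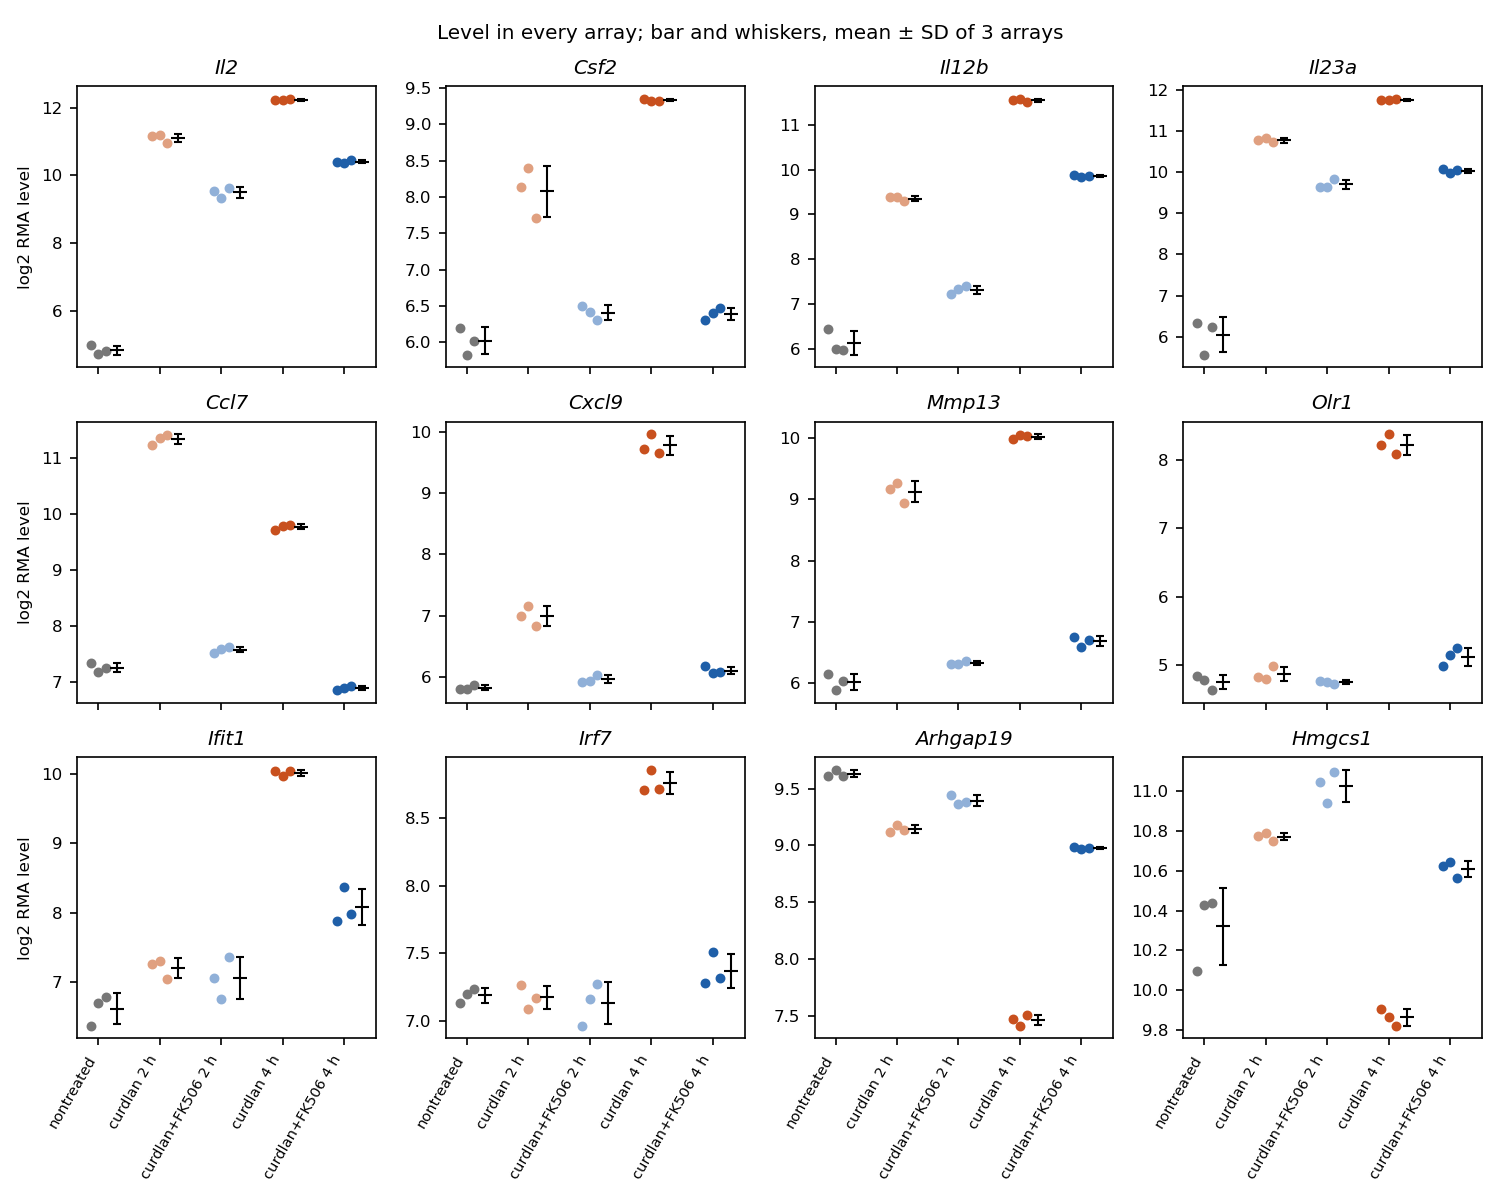
Log2 RMA level (y axis, separate range per gene and not starting at 0) of 12 genes on every array of the 5 groups (x axis). Points are arrays, and the black bar with whiskers is the mean ± SD of 3 arrays. At 4 h the curdlan and FK506 arrays separate in all 12 genes, with Arhgap19 and Hmgcs1 higher with FK506 and the others lower.

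Cytokines of the interleukin and colony-stimulating factor list were lower in 14 of 50 measured members and higher in 0. The shares over all tested genes were 1.53% and 0.211%. The median of the list was 0.07 against -0.03 over all genes, so most members differed little. Il2, the T cell growth factor that dendritic cells also make after dectin-1 signalling, read 12.22, 12.23 and 12.27 with curdlan and 10.38, 10.38 and 10.47 with FK506. The groups were clearly apart, at 1.83 ± 0.08 (3.55-fold, limma adjusted p = 8.80e-09), yet the FK506 arrays remained far above the nontreated arrays at 4.97, 4.72 and 4.79. Il12b, the p40 subunit shared by interleukin-12 and interleukin-23, read 11.55, 11.58 and 11.51 with curdlan and 9.88, 9.84 and 9.85 with FK506 (1.69 ± 0.10, limma adjusted p = 6.59e-08). Il23a, the p19 subunit of interleukin-23, read 11.75, 11.74 and 11.78 with curdlan and 10.08, 9.98 and 10.04 with FK506 (1.72 ± 0.14, limma adjusted p = 2.47e-06). As with Il2, the FK506 arrays of Il12b and Il23a stayed well above nontreated means of 6.14 ± 0.26 and 6.05 ± 0.42.

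Csf1, the macrophage growth factor, was lower by 1.56 ± 0.07 and Lif by 1.26 ± 0.08. Smaller decreases were called for Tslp (0.96), Clcf1 (0.91), Il15 (0.90), Il18 (0.89), Il1a (0.88), Il6 (0.87), the interleukin-1 receptor antagonist gene Il1rn (0.78) and Ifng (0.69). Il6 was dim on all arrays, at 4.52, 4.34 and 4.49 with curdlan and 3.52, 3.65 and 3.58 with FK506, so its difference concerns a low signal. Il10 read 4.54 to 4.66 with curdlan and 4.24 to 4.30 with FK506, a difference of 0.33 under the fold threshold. Tnf, the early inflammatory cytokine, read 13.11, 13.13 and 13.12 with curdlan and 12.82, 12.82 and 12.78 with FK506. This small and regular difference of 0.32 (95% interval 0.20 to 0.43, limma adjusted p = 0.00138) did not reach 1.5-fold.

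Chemokines were lower in 12 of 34 measured members and higher in 0, against 1.53% and 0.211% of all tested genes. The list median was 0.11. Besides Cxcl9 and Ccl7, the lower chemokines were the neutrophil attractants Cxcl3 (2.13) and Cxcl2 (0.60), the monocyte attractants Ccl12 (1.84), Ccl9 (1.80) and Ccl2 (1.46), the inflammatory chemokines Ccl4 (1.97) and Ccl5 (0.65), the CXCR3 ligand Cxcl10 (1.49) and the CCR8 ligand Ccl1 (1.27). The eosinophil attractant Ccl24 was 2.83-fold lower. The depth of the decrease relative to nontreated cells varied. Ccl4 read 11.96, 11.93 and 11.92 with curdlan and 9.96, 9.96 and 9.97 with FK506, still far above its nontreated mean of 6.79 ± 0.16. Ccl2 read 12.47, 12.54 and 12.46 with curdlan and 11.00, 11.07 and 11.04 with FK506, which is below its nontreated mean of 11.93 ± 0.03. Probes of closely related chemokine genes can share sequence, so single members of this family are less certain than the family.

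Ligands of the TNF superfamily were lower in 7 of 16 measured members and higher in 1, against 1.53% and 0.211% of all tested genes. The list median was 0.37. Tnfsf14 (LIGHT) read 9.05, 9.35 and 9.30 with curdlan and 7.12, 7.16 and 6.98 with FK506 (4.43-fold lower, limma adjusted p = 2.51e-07). Tnfsf8 (CD30 ligand) was lower by 1.87, the costimulatory ligand Cd70 by 1.60 and Tnfsf4 (OX40 ligand) by 1.48, and Tnfsf15, Tnfsf18 and Tnfsf10 by 1.20, 1.17 and 0.95. Tnfsf13b, which encodes the B cell survival factor BAFF, was the member that was higher, at 9.64 to 9.67 with curdlan and 10.22 to 10.36 with FK506 (-0.61 ± 0.05). That call is close to the fold threshold and was lost without FK506 4 h replicate 3 and with arrays centred on their medians.

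A list of 25 NFAT-responsive genes known from T cells had 9 members lower with FK506 and 0 higher, with a median of 0.30. Over all tested genes 1.53% were lower and 0.211% higher. Csf2 and Il2 led the list together with Ptgs2, the inducible cyclooxygenase, which read 10.61, 10.65 and 10.56 with curdlan and 8.42, 8.33 and 8.48 with FK506 (2.20 ± 0.10, limma adjusted p = 1.11e-08). The nuclear receptors Nr4a2 and Nr4a1 were lower by 1.65 and 1.26, and the zinc finger factors Egr2 and Egr3 by 1.35 and 0.78. Rcan1, an inhibitor of calcineurin that is itself an NFAT target, read 8.54, 8.61 and 8.60 with curdlan and 7.87, 7.92 and 7.91 with FK506. Its difference of 0.69 ± 0.06 (1.61-fold, limma adjusted p = 6.67e-06) placed the FK506 arrays below the nontreated mean of 8.01 ± 0.11. Nr4a1, Nr4a2, Egr2 and Egr3 also made up 4 of the 5 lower members among 29 immediate early transcription factors, the other being Maff (0.67).

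Transcripts of the pathway that FK506 acts on mostly changed by less than 1.5-fold. Of 31 calcineurin, NFAT and store calcium genes, Rcan1 alone was called, and the list median was -0.03. An unadjusted limma p under 0.05 was found in 12 of the 31, against 20.1% of all tested genes. Ppp3ca, a catalytic subunit of calcineurin, differed by -0.16 (95% interval -0.29 to -0.03, limma adjusted p = 0.122). Nfatc1 was 11.09 to 11.16 with curdlan and 10.71 to 10.74 with FK506, while Nfatc2 was 9.65 to 9.71 with curdlan and 10.06 to 10.13 with FK506. These differences, 0.39 and -0.43 (limma adjusted p = 9.27e-05 and 1.09e-05), run in opposite directions. Both are without overlap and stay under 1.5-fold. Of 13 FK506-binding proteins 0 were called, where 1.53% of all tested genes were called lower and 0.211% higher. Fkbp1a, which encodes FKBP12, the main intracellular partner of the drug, lay between 11.19 and 11.22 on all 6 arrays. The dectin-1 gene Clec7a differed by 0.05 ± 0.05, and among 19 dectin-1 signalling genes the adaptor Blnk (0.81) was the only call.

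NF-kB genes were mostly under the fold threshold. In the list of 22 subunits and feedback genes, Ikbke, a kinase that activates interferon regulatory factors, was called at 1.27 ± 0.08, with 9.91, 9.97 and 9.89 on the curdlan arrays and 8.63, 8.59 and 8.75 on the FK506 arrays. The list median was 0.13, and 11 of the 22 genes were lower by adjusted p alone, against 6.03% of all tested genes. Feedback inhibitors of signalling were lower in 3 of 24 members, against 1.53% of all tested genes. They were the phosphatases Dusp14 (2.20) and Dusp2 (0.96), and Rgs1 (0.88), a regulator of G protein signalling. No reference gene was called: 0 of 9 housekeeping and 0 of 13 ribosomal protein genes passed the thresholds. With 1.53% of all tested genes called lower and 0.211% higher, 0 calls would be common in lists this short. An unadjusted limma p under 0.05 was found in 1 and 0 of them, against 20.1% of all tested genes. Actb, the cytoskeletal actin gene, lay between 13.45 and 13.51 on all 6 arrays.

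**Figure D3:**
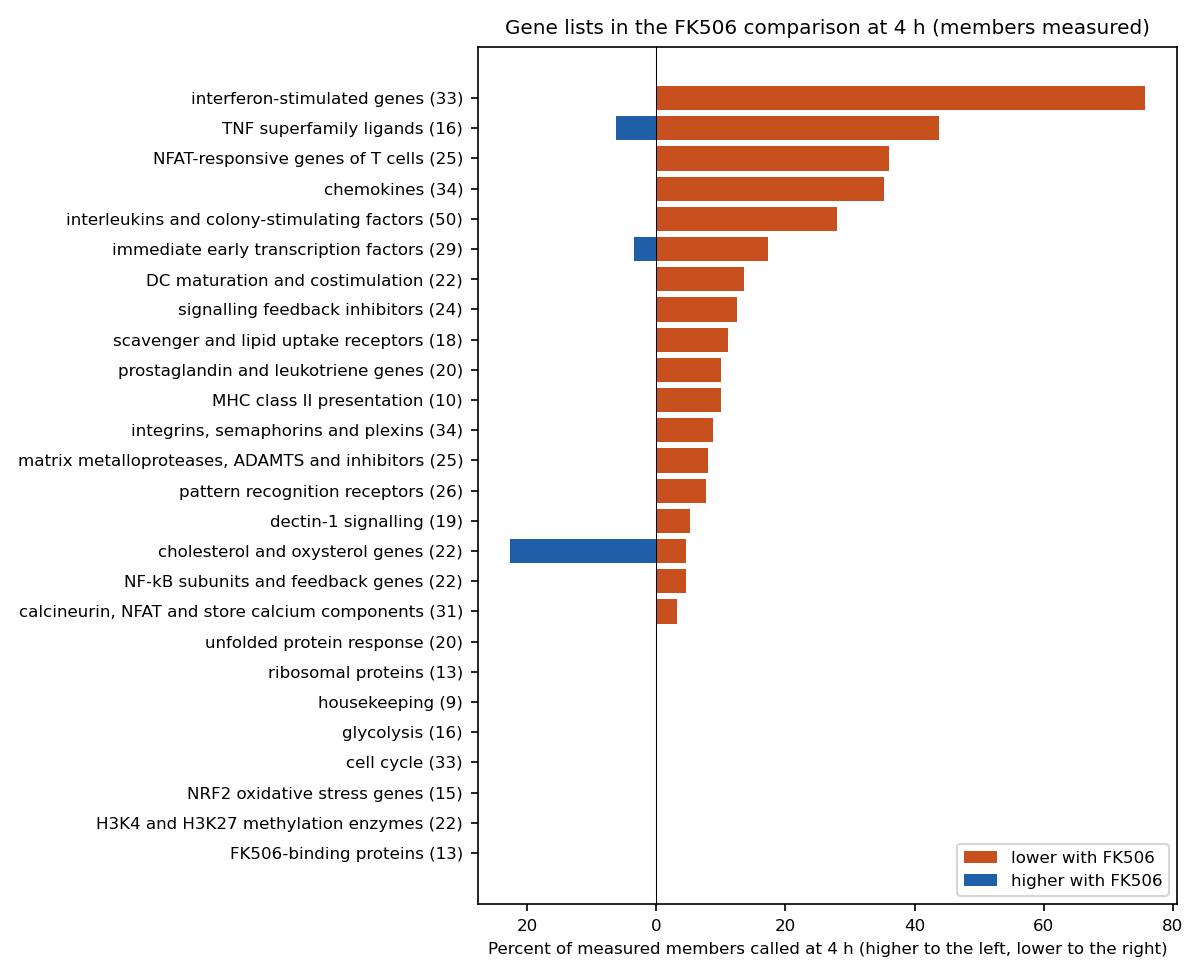
Percent of measured members (x axis, 0 at the black line) called higher (left) or lower (right) with FK506 at 4 h for each of the 24 response and 2 reference gene lists (y axis, members measured in parentheses). The interferon-stimulated list reaches 75.8% lower, and the cholesterol list has the longest bar to the left, with 5 of 22 members higher.

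Interferon-stimulated genes, which encode antiviral effectors and sensors, were lower with FK506 in 25 of 33 measured members, or 75.8%, and higher in 0. All tested genes had shares of 1.53% and 0.211%. The list median was 0.83, and the difference was positive in all 33 members, from 0.15 to 3.68. The mean level of the list on single arrays was 9.55 to 9.62 with curdlan and 8.43 to 8.58 with FK506. Ifit1, a sensor of foreign RNA, read 10.05, 9.97 and 10.04 with curdlan and 7.88, 8.37 and 7.98 with FK506, and 6.36, 6.70 and 6.77 in nontreated cells. The 3 groups of levels did not overlap, and the FK506 effect was 1.94 ± 0.16 (3.84-fold, limma adjusted p = 1.57e-06). The neighbouring Ifit2 and Ifit3 were lower by 1.94 and 1.77, the GTPase Mx2 by 1.95 and Rsad2, which encodes viperin, by 1.89. The RNA sensors Ifih1 and Ddx58 (1.35 and 0.83) and the oligoadenylate synthetase genes Oas3, Oas2 and Oas1a (1.37, 1.10 and 0.59) were lower too.

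Irf7, the master regulator of type I interferon, read 8.70, 8.85 and 8.71 with curdlan and 7.28, 7.51 and 7.32 with FK506. All FK506 arrays were close to the nontreated mean of 7.19 ± 0.05, and the difference was 1.38 ± 0.08 (limma adjusted p = 9.47e-08). Stat2 and Irf9, transcription factor genes of the interferon response, differed by 0.55 and 0.56, just under the fold threshold. The type I interferon genes Ifnb1, Ifna4 and Ifna2 were not called. Ifnb1, which encodes interferon beta, read 4.92 to 5.23 with curdlan and 4.88 to 5.06 with FK506, below the lower quartile of gene means. Its groups overlapped, and the difference was 0.10 with a 95% interval of -0.20 to 0.39 (limma adjusted p = 0.819). Ifna4 and Ifna2 differed by -0.07 and -0.19, and the receptor chain Ifnar1 by 0.08. Probes of the Ifit and Oas families can share sequence between close copies. The IRF element shown above for Ifit1 was in 10 of 23 upstream windows (43.5%) of the lower list members, against 2.98% of all windows. The NFAT core and the AP-1 site were each in 4 of these 23 windows (17.4%), against 20.4% and 4.46% of all windows. A window was found for 20 of the 25 lower members. The list was chosen by name as interferon-stimulated, and such genes are switched on by IRF factors. The IRF share therefore describes the list and not an effect of FK506. The share among list members that were not called was not computed.

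Curdlan alone had little raised the interferon-stimulated list at 2 h. The mean level of the list on single arrays was 7.97 to 8.12 in nontreated cells, 8.10 to 8.24 with curdlan for 2 h and 8.07 to 8.16 with FK506 added. Of the 33 genes, 6 had a mean at least 1.5-fold above the nontreated mean after curdlan for 2 h and 27 after 4 h. Irf7, for example, had a mean of 7.19 in nontreated cells and 7.18 after curdlan for 2 h. The 2 h arrays are separate samples, so the FK506 effect at 2 h is measured independently of that at 4 h. At 2 h, 3 of the 33 genes were lower with FK506 (Cxcl9, Cxcl10 and Ifih1), against 0.762% of all tested genes, and the list median was 0.03. The test of the difference between the times (the interaction, 4 h effect minus 2 h effect) was positive and past the same thresholds in 26 of 33 members and negative in 0. Over all tested genes it was positive in 1.06% and negative in 0.171%. Ifit1 had an FK506 effect of 0.14 ± 0.16 at 2 h, and its interaction was 1.80 ± 0.22 (limma adjusted p = 0.000318). For Irf7 the effect at 2 h was 0.04 ± 0.08 and the interaction 1.35 ± 0.12 (limma adjusted p = 2.05e-05). These interactions compare a time with little induction to a time with induction, and sensitivity to FK506 at equal induction was not tested.

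**Figure D4:**
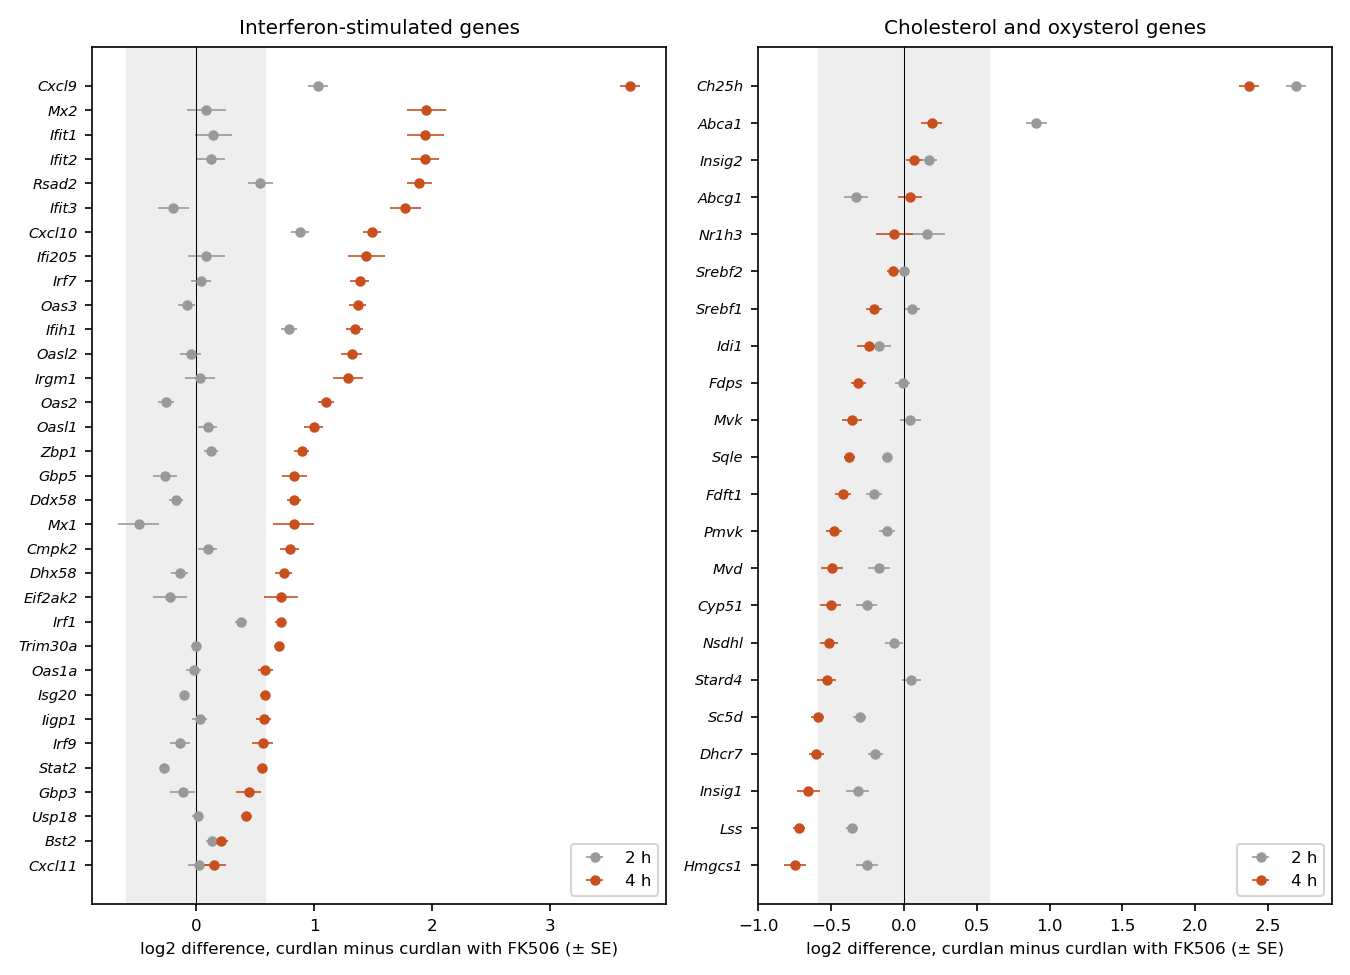
Log2 difference, curdlan minus curdlan with FK506, ± SE (x axis) of each measured gene (y axis) of the interferon-stimulated list (left) and the cholesterol and oxysterol list (right), at 2 h (grey) and 4 h (orange). The grey band marks differences under 1.5-fold. All 33 interferon-stimulated genes lie to the right of 0 at 4 h, whereas 18 of 22 cholesterol genes lie to the left.

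Across all genes, 152 were lower with FK506 at 2 h (0.762%) and 72 were higher (0.361%). Both times shared 94 lower genes, which are 30.7% of the 306 lower at 4 h and 61.8% of the 152 lower at 2 h. They shared 13 higher genes, 31.0% of the 42 at 4 h and 18.1% of the 72 at 2 h. Among the 306 genes lower at 4 h, the difference had the same sign at 2 h in 255, with a median of 0.29 at that time. The interaction was called positive in 147 of them and negative in 7, against 1.06% and 0.171% of all tested genes. These genes were picked by the 4 h effect that the interaction contains, so the choice itself favours positive calls. Conversely, 18 of the 58 genes called lower at 2 h and not at 4 h had a negative call. Of the 212 genes called lower at 4 h and not at 2 h, 128 had a called interaction, and for the other genes a difference between the times was not shown.

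Some of the largest decreases were in genes that curdlan had not yet raised at 2 h. The means of nontreated cells and of curdlan for 2 h were 4.76 and 4.87 for Olr1 and 5.34 and 5.30 for Scnn1g, so that no decrease could be measured at that time. Olr1 had an FK506 effect of 0.12 ± 0.09 at 2 h and Scnn1g one of 0.02 ± 0.07, with interactions of 2.97 ± 0.12 and 2.62 ± 0.10 (limma adjusted p = 1.85e-08 and 1.21e-08). Abhd12b was already lower at 2 h, by 0.60 ± 0.06, and Cxcl9 by 1.03 ± 0.08, with interactions of 2.84 and 2.65. In contrast, Il2, Ptgs2, Egr2 and Nr4a1 had effects of 1.61, 2.11, 1.59 and 1.51 at 2 h, and their interactions of 0.22, 0.08, -0.24 and -0.25 were not called. For Il2 the 95% interval of the interaction was -0.03 to 0.48. Effects that were smaller at 4 h were found for Sema7a, a membrane semaphorin (2.22 at 2 h and 0.89 at 4 h), the heat shock gene Hspa1a (1.88 and 0.81), Spin4 (2.42 and 1.45), Rcan1 (1.57 and 0.69) and Ccl7 (3.75 and 2.87). In each of these genes the mean with curdlan alone was also lower at 4 h than at 2 h. It was 10.44 at 2 h and 9.66 at 4 h for Sema7a, and 11.32 and 9.76 for Ccl7. Such a fall was not particular to these genes. The mean also went from 11.71 to 10.70 for Egr2 and from 12.03 to 11.10 for Nr4a1, whose interactions were not called. For Il2 and Ptgs2 it rose, from 11.11 to 12.24 and from 10.01 to 10.61. Sensitivity to FK506 at equal induction was not tested here either. Curdlan 2 h replicate 3 and nontreated replicate 1 stood apart from the other arrays. Without both, 24 of 33 interferon-stimulated genes had a positive interaction call, and 4 h counts were 312 lower and 43 higher.

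**Figure D5:**
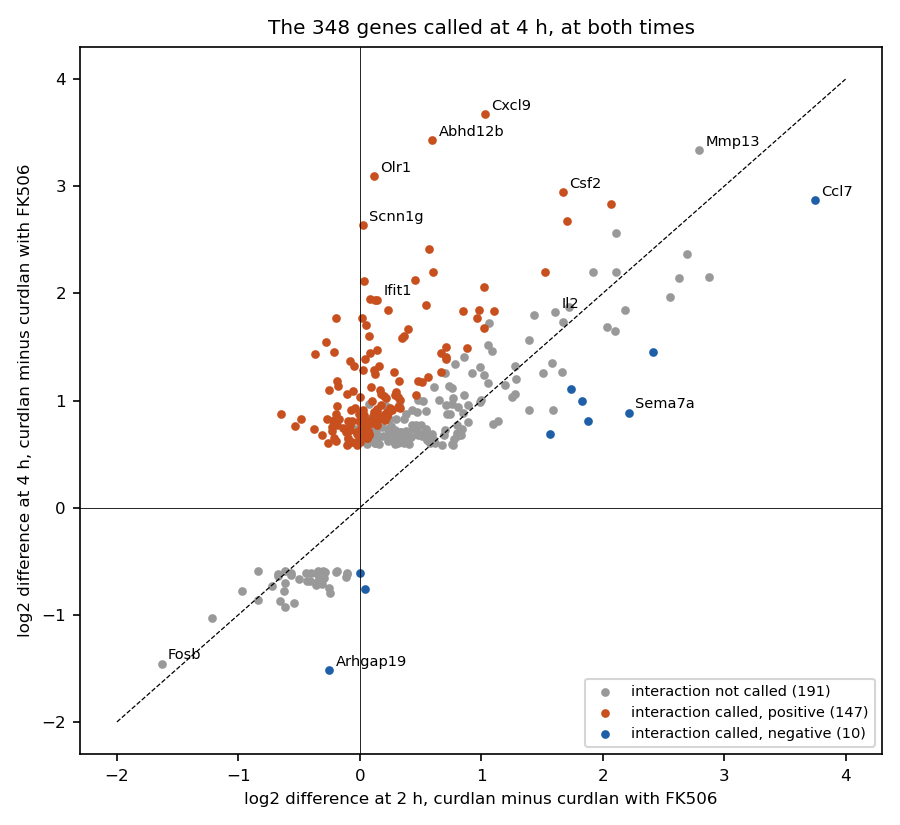
Genes called at 4 h, 306 lower and 42 higher, with the log2 difference at 2 h on the x axis and at 4 h on the y axis (curdlan minus curdlan with FK506), and equal effects on the dashed line. Colours give the interaction call: 147 genes positive, 10 negative. The genes were picked by their 4 h effect, which favours positive calls among the lower genes. Olr1 and Scnn1g lie near 0 at 2 h, whereas Il2 and Fosb lie near the dashed line. Mmp13 lies above that line (2.79 at 2 h and 3.34 at 4 h), with an interaction of 0.54 under the fold threshold.

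Most genes of antigen presentation and costimulation were not called, though the shares called lower exceeded the 1.53% of all tested genes. Of 22 maturation and costimulation genes, Cd70, Tnfsf4 and Vsir, which encodes the inhibitory receptor VISTA (1.05), were lower and 0 were higher. In the MHC class II list the lysosomal protease gene Ctsl was lower by 1.84 ± 0.06 and none of the other 9 members was called. Pattern recognition receptors were lower in 2 of 26 members, the LPS coreceptor Cd14 (0.90) and the C-type lectin Clec4e (0.72). Mertk, a receptor for the uptake of dying cells, read 8.29, 8.43 and 8.40 with curdlan and 6.28, 6.15 and 6.08 with FK506 (2.20 ± 0.09, 4.61-fold, limma adjusted p = 4.35e-09). Its nontreated mean was 8.11 ± 0.19, so curdlan had raised it little and all FK506 arrays lay far below nontreated cells. Both Mertk and Cd14 are on the macrophage marker list, whose mean level per array was 9.99 to 10.05 with curdlan and 9.66 to 9.71 with FK506. The other 5 markers on that list were not called, and whether other cells had a part in these changes was not tested. Nkg7 was low, at 6.32 to 6.68 with curdlan and 5.33 to 5.59 with FK506, and Cd5 read 9.32 to 9.38 with curdlan and 8.64 to 8.78 with FK506. Nontreated means of Cd5 (9.67) and Vsir (8.68) were above those with curdlan (9.34 and 8.34). Means with FK506 (8.71 and 7.28) were lower still.

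Remaining lists held a few called genes each, at 8% to 11.1% of measured members lower, against 1.53% of all tested genes. Scavenger and lipid uptake receptors were lower in 2 of 18 members, Olr1 and Cd36 (0.64). Prostaglandin and leukotriene genes were lower in 2 of 20, Ptgs2 and the receptor gene Ptger2 (0.62), and the Ptger2 call was lost without FK506 4 h replicate 1. The metalloprotease list had Mmp13 and Adamts6 (4.45-fold) lower among 25 members. Integrins, semaphorins and plexins were lower in 3 of 34, namely Itgal, a chain of LFA-1 (1.07 ± 0.05), Sema7a (0.89) and the semaphorin receptor gene Nrp1 (0.87).

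Genes of cholesterol synthesis made up the list with the most members higher with FK506. Of 22 measured cholesterol and oxysterol genes, 5 were higher and 1 was lower, against 0.211% and 1.53% of all tested genes. The difference was negative in 18 of the 22, and the median was -0.40 against -0.03 over all genes. Hmgcs1, an early enzyme of the mevalonate pathway, read 9.90, 9.87 and 9.82 with curdlan and 10.62, 10.64 and 10.57 with FK506. All FK506 arrays were above all curdlan arrays, with a difference of -0.75 ± 0.08 (1.68-fold higher, limma adjusted p = 1.64e-05). Lss, the lanosterol synthase gene, read 8.61, 8.63 and 8.67 with curdlan and 9.41, 9.30 and 9.36 with FK506 (1.65-fold higher, limma adjusted p = 1.11e-07). Insig1, a sterol-regulated brake on the pathway, was higher by 1.58-fold, and the late synthesis genes Dhcr7 and Sc5d by 1.52-fold and 1.51-fold. These calls lie near the fold threshold, and the list had 3 higher genes when arrays were centred on their medians, and likewise without FK506 4 h replicate 1. Without the fold threshold, 15 of the 22 genes were higher, against 5.64% of all tested genes. Nontreated means were 10.32 for Hmgcs1, 9.66 for Lss, 10.66 for Insig1, 9.02 for Dhcr7 and 10.04 for Sc5d, each above the mean with curdlan. With FK506 the means of Lss (9.36) and Dhcr7 (8.31) stayed below nontreated cells. Those of Hmgcs1 (10.61), Insig1 (11.03) and Sc5d (10.18) were above nontreated cells. Srebf2, the transcription factor gene that governs the pathway, differed by -0.08 and was not called.

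The lower member of that list was Ch25h, which encodes cholesterol 25-hydroxylase, an enzyme that makes the oxysterol 25-hydroxycholesterol. It read 10.27, 10.31 and 10.29 with curdlan and a mean of 7.92 ± 0.08 (SD, n = 3) with FK506, below all of its nontreated values of 8.62, 8.88 and 8.83. The difference of 2.37 ± 0.07 was 5.17-fold (limma adjusted p = 8.95e-11). At 2 h it was 2.69, and the interaction of -0.32 was not called.

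Among the other 37 genes higher with FK506, Arhgap19, which encodes a GTPase-activating protein, changed most. It read 7.47, 7.41 and 7.50 with curdlan and 8.98, 8.97 and 8.98 with FK506, against a nontreated mean of 9.63 ± 0.03. The FK506 arrays lay between the other groups without overlap, 2.86-fold above curdlan (-1.52 ± 0.04, limma adjusted p = 4.43e-11). At 2 h the effect was -0.25 ± 0.04, and the interaction was -1.26 ± 0.06. Fosb, an AP-1 subunit, read 7.01, 7.01 and 6.96 with curdlan and 8.46, 8.41 and 8.47 with FK506, and was thus the member of the immediate early list that was higher (2.74-fold, limma adjusted p = 2.94e-05). Grap2, the adaptor GADS, was 2.04-fold higher. Smco3 (-0.93), the pseudokinase gene Trib2 (-0.89), the nuclear lamin gene Lmna (-0.88), the placental growth factor gene Pgf (-0.86) and Nceh1 (-0.80), which encodes a neutral cholesterol ester hydrolase, followed.

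Lists for general cell functions had 0 calls at 4 h, where 1.53% of all tested genes were called lower and 0.211% higher. Cell cycle genes had 0 of 33 members called in either direction, with a median of -0.11, and their largest differences were -0.37 for Cdc6 and -0.34 for Cdt1, both loaders of the replication helicase. Glycolysis had 0 of 16 called (Pfkp 0.51, Hk2 0.28), NRF2 stress genes 0 of 15 (Hmox1 -0.30, Srxn1 0.24), the unfolded protein response 0 of 20 (Dnajb9 0.47, Trib3 0.45) and histone H3K4 and H3K27 methylation enzymes 0 of 22 (Kdm6b 0.31, Setd7 -0.20). Members with an unadjusted limma p under 0.05 numbered 18, 7, 5, 12 and 10 in these lists, in the order given, against 20.1% of all tested genes. A negative difference was found in 27 of the 33 cell cycle genes and in 62.4% of all tested genes.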

How the data were processed

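Total RNA of 15 D1 cultures (5 groups of 3) was hybridised to Affymetrix Mouse Gene 1.0 ST arrays (1 colour). The deposited values are log2 intensities made by the authors with RMA (background correction, quantile normalization, probe summary) in the affy package under R 2.15.2. Quantile normalization hides any shift shared by most genes. Of 34760 probe sets, 21640 had 1 gene symbol, and the brightest per gene gave 19937 genes, with no filter on low values. limma 3.58.1 in R 4.3.3 fitted 1 mean per group to all 15 arrays (10 residual degrees of freedom), with two-sided moderated tests and Benjamini-Hochberg adjustment over all genes within each comparison. Errors of differences are moderated SE, and the number of arrays limits their precision. The code was tested on simulated data.

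The comparison, the 36 gene lists and the rule for naming genes were chosen with earlier results of these data known. The rule takes the 10 largest decreases and 8 largest increases among called genes without overlap, up to 4 called members per list (the 2 largest differences where none passed), the 5 largest interactions in each direction and a fixed set of pathway and cytokine genes. Other genes named as list members, outside that rule, were chosen after their values were seen. Same-numbered replicates were not paired: correlations of their deviations were 0.05, 0.07 and -0.00. Alternatives covered the samples fitted, replicate block, left-out replicates, array weights, normalization, low-signal filter, variance moderation, probe set choice and thresholds. Scan dates are not given in the sources used here.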

Additional observations from a re-analysis of the deposited data

Results flagged for a closer look

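The FK506 effect at 4 h differed from that at 2 h, by the interaction test in limma (adjusted p under 0.05 and at least 1.5-fold), in 27 of the genes named by rule. The values are 4 h effect minus 2 h effect on the log2 scale, and the 2 h effect rests on other arrays. The effect was larger at 4 h for Olr1 (2.97), Abhd12b (2.84), Cxcl9 (2.65), Scnn1g (2.62), Ifit3b (2.09), Mx2 (1.87), Ifit2 (1.82), Ifit1 (1.80), Cxcl3 (1.67), Tnfsf4 (1.34), Csf2 (1.27), Cd70 (1.24), Itgal (1.17), Ikbke (0.98), Il1bos (0.96), Il6 (0.85), Blnk (0.81), Jam2 (0.76), Ctsl (0.73) and Mertk (0.68). It was smaller at 4 h for Sema7a (-1.33), Hspa1a (-1.07), Spin4 (-0.97), Rcan1 (-0.88) and Ccl7 (-0.88), whose levels with curdlan alone were also lower at 4 h. Levels with curdlan alone fell likewise for Egr2 and Nr4a1, whose interactions were not called. For Arhgap19 the value of -1.26 is an increase with FK506 that was larger at 4 h. Cxcr2 (0.62) was called at neither time, with differences of -0.32 at 2 h and 0.30 at 4 h, and its interaction was 0.47 and no longer called without curdlan 2 h replicate 3 and nontreated replicate 1, which stood apart from the other arrays. Without these arrays 31 named genes had a called interaction.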

How the results depend on the processing

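Counts of genes lower and higher with FK506 at 4 h were 306 and 42. With the replicate block they were 305 and 42, and the block changed no call of a named gene. Leaving out each of the 6 arrays in turn gave 296 to 315 lower and 37 to 45 higher genes. Centring the arrays on their medians gave 332 lower and 27 higher genes. Without a fold threshold the counts were 1202 and 1125, with a 2-fold threshold 114 and 3, and with a test against 1.5-fold (treat) 127 and 5, since these settings change the threshold itself. Counts under the other settings were 293 to 313 lower and 41 to 45 higher. Of the 64 called genes named by rule, 63 kept their call and 0 reversed over 14 settings that keep the thresholds. The exception was Ptger2 (0.58 without FK506 4 h replicate 1). The interferon-stimulated list had 24 to 28 lower members over these settings, and the cholesterol list 3 to 5 higher. Low array signal limits fold changes of dim genes such as Il6.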

Other observations

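Genes outside the lists, singled out after their values were seen, were also lower with FK506. Among secreted proteases and matrix proteins were the plasminogen activators Plat (1.68) and Plau (1.03) and the matrix protein tenascin C gene Tnc (2.06). Effector enzymes of activated myeloid cells included Nos2, the inducible nitric oxide synthase (1.06), Acod1, which makes itaconate (1.01), and Hdc, which makes histamine (1.01). The costimulatory receptor gene Tnfrsf4 (OX40) was lower by 1.67, the interleukin-2 receptor beta chain gene Il2rb by 0.83 and the endothelin gene Edn1 by 1.11. The genes of both C5a receptors, C5ar2 and C5ar1, were lower by 0.83 and 0.77. The signal of the probe set for the microRNA gene Mir155 was lower by 0.61.

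Some lower genes lay side by side, many of them members of tandem families. In the gene order of GRCm38.p6, 60 of the 306 lower genes formed 26 runs of at least 2 neighbours among tested genes. How many runs 306 genes drawn from all tested genes would form was not computed, so clustering was not tested. The longest run was the Ifit cluster of chromosome 19, where Ifit2, Ifit3, Ifit3b, Ifit1bl2 and Ifit1 were lower by 1.94, 1.77, 2.12, 0.87 and 1.94. On chromosome 11, Slfn5, Slfn9, Slfn8 and Slfn10-ps were lower by 1.46, 0.84, 1.29 and 0.88. On chromosome 4 the run held Tnfsf15 (1.20), Tnfsf8 (1.87), Tnc (2.06) and 8030451A03Rik (0.92). Close copies within the Ifit and Slfn clusters can share probe sequence, and its part in these runs was not tested.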
